A study of Mus musculus with 5 samples.

Results

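Genes that pattern the anterior neural plate and the eye field were measured by RNA sequencing in 5 mouse libraries of neuroepithelial cells (NECs) that the submitters describe as purified, the progenitors that line the early neural tube. The 9 genes, Otx1, Otx2, Lhx2, Lhx9, Rax, Hesx1, Vax1, Vax2 and Mitf, were taken by symbol from a table of 21801 genes, and all 9 were found once. The libraries, replicates 1 to 5, formed 1 group of neural progenitor cells from the developing neocortex. Their labels name no treatment, mutant or second cell type. The sources used here do not state strain, genotype, embryo age, purification method or whether replicates were separate animals. A p-value therefore covers the spread among these 5 libraries, which may be technical. Levels are FPKM, which scales fragments to transcript length and to a depth of 1000000 mapped reads, and are given as mean ± SD over the 5 libraries unless single values are printed. Actb, Eef1a1, Hspa8 and Hsp90ab1, which nearly every cell uses, were listed at 0 in all 5 libraries, so a listed 0 may be a failed estimate.

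Head identity in the neural plate is set up by homeobox genes that act in overlapping fields. Otx genes mark the forebrain and midbrain, Hesx1 represses in the most anterior part, and Rax, Lhx2, Pax6 and Six3 act in the eye field that forms within it. Once the optic vesicle grows out, Vax1 and Vax2 act in its ventral side and the optic stalk, and Mitf in the layer that becomes the retinal pigment epithelium. Lhx2 is also required for cortical identity in the dorsal telencephalon.

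The 9 genes covered a wide range of levels, with Otx2 highest at 85.1 ± 12.9 FPKM and Vax2 lowest at 0.0742 ± 0.0382. Otx2, Lhx2, Otx1, Hesx1 and Mitf lay above 1 FPKM and Lhx9, Rax, Vax1 and Vax2 lay below it, by limma's moderated test on log2(FPKM + 1) with Benjamini-Hochberg adjusted p under 0.05. Thus 5 of the 9 were called above and 4 below, where 52.3% of the 19706 genes tested were called above and 41.4% below. Both counts are near that background, so they are not a result about these genes, whose median level of 1.51 FPKM compared with 1.79 over all tested genes. The same shares, 52.3% above and 41.4% below, are the background for the count of every other gene list that follows. The order of means was Otx2, Lhx2, Otx1, Hesx1, Mitf, Lhx9, Rax, Vax1 and Vax2.

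**Figure D1:**
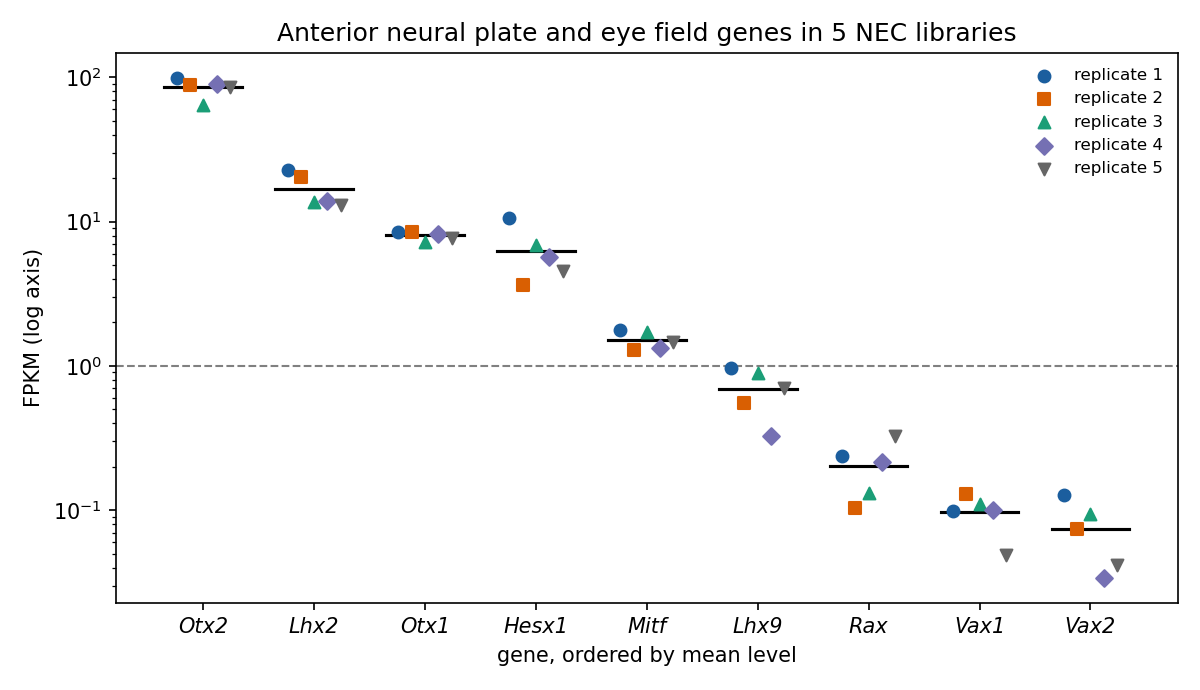
FPKM on a log axis for each gene, with 1 marker per library, a black line at the mean and a dashed line at 1 FPKM. The 5 libraries of Otx2 lie between 64.0 and 98.8 FPKM, whereas no library of Vax1 or Vax2 passes 0.13.

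Promoter windows from RefSeq (build GRCm38.p6, 250 bases before to 50 after a start) were available for 6 of the 9 genes, with 12 windows in all. No window of Otx1, Rax or Vax2 is given. The sequences show the start regions of the 3 highest genes that matched and, for contrast in level, of Vax1. Capitals mark TAATCC (the core bound by Otx-type homeodomains), TAATTA (a core of many other homeodomains) and TATAAA, each searched on both strands. A match is a description of the letters and not a bound site.
Otx2, most upstream start, chr14:48667595-48667894, minus strand: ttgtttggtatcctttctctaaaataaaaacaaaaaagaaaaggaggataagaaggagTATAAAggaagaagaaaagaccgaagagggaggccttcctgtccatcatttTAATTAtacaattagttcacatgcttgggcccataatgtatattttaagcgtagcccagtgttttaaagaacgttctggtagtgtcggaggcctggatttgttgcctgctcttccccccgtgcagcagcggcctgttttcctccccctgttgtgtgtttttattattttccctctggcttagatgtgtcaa
Otx2, downstream start, chr14:48665060-48665359, minus strand: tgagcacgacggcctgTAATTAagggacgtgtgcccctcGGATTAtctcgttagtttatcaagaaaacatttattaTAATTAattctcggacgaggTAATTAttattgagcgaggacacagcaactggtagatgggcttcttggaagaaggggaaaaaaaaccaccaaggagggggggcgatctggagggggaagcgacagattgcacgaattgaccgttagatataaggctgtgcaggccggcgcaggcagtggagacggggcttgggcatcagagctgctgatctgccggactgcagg
Lhx2, most upstream start, chr2:38339031-38339330, plus strand: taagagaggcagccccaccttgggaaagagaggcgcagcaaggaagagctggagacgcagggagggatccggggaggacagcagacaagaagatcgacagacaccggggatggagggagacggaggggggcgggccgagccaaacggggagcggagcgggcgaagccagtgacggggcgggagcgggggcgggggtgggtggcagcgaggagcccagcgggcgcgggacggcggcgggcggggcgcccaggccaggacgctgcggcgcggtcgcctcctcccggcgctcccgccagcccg
Hesx1, chr14:27000112-27000411, plus strand: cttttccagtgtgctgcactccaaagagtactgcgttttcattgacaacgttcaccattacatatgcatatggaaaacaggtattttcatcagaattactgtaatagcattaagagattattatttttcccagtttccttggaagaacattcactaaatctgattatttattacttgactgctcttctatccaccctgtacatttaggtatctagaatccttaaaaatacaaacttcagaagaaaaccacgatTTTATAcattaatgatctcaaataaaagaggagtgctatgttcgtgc
Vax1, chr19:59170348-59170647, minus strand: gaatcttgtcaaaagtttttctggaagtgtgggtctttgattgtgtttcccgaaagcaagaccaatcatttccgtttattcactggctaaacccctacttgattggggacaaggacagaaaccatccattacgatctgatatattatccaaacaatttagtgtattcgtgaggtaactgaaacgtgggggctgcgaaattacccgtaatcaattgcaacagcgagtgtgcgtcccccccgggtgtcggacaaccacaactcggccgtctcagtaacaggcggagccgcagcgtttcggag

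The downstream Otx2 window held 1 TAATCC and 3 TAATTA matches, the most motif matches of the 12 windows, which is why it is shown. Over all 32851 promoter windows of the same length, 7.06% held TAATCC, 5.29% held TAATTA and 13.6% held TATAAA. The most upstream Otx2 window held 1 TAATTA and 1 TATAAA, and the Hesx1 window 1 TATAAA. The printed Lhx2 and Vax1 windows had no match to the 3 motifs.

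The windows differed in base composition. The Lhx2 window had 74.7% GC and 34 CpG dinucleotides, 0.89 of the number expected from its base content. The Hesx1 window had 33.7% GC, 4 CpG and a ratio of 0.48, and the most upstream Otx2 window 41.7% GC, 6 CpG and 0.46, although the downstream Otx2 window had 0.89. Vax1 had the highest ratio of the 12 windows, 1.00, with 47.7% GC, and was among the lowest genes in level. Across all windows the median ratio was 0.38. Among tested genes with a matched window, 75.8% of 7504 with at least 50% GC and a ratio of at least 0.6 were called above 1 FPKM, against 30.0% of the other 6859. By these criteria the most upstream Lhx2 and Mitf windows (Mitf with 62.7% GC and 0.75) fell in the first class. Those of Otx2, Hesx1, Lhx9 and Vax1 fell in the second, Vax1 for its GC content. The windows of Otx2, Hesx1 and Lhx9 lie inside the GENCODE bounds of these genes. Annotated starts further upstream therefore have no window here, and their class is not known. The second class was more often called below 1 FPKM, as Lhx9 and Vax1 were, whereas Otx2 and Hesx1 were called above. For Otx2 the class depends on the start used, since the downstream window, with 51.0% GC and a ratio of 0.89, met both criteria of the first class.

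**Figure D2:**
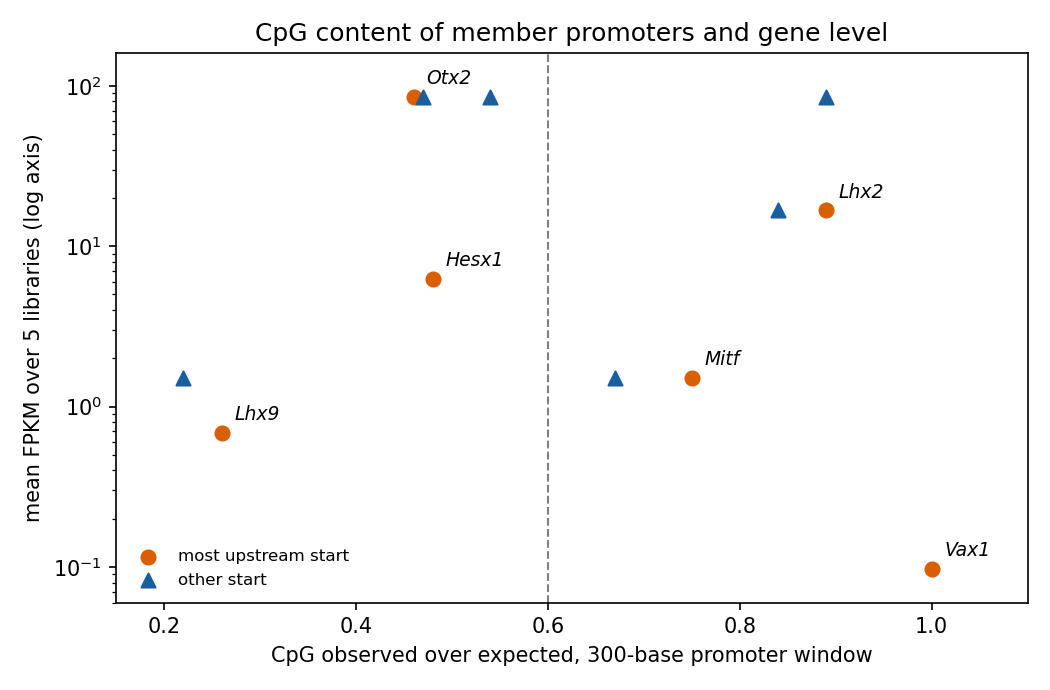
Mean FPKM over 5 libraries (log axis) against the CpG observed over expected ratio of each 300-base promoter window, for the 6 genes with windows. Circles are the most upstream start, triangles other starts and the dashed line a ratio of 0.6. For the most upstream starts, Otx2, the highest gene, lies at a ratio of 0.46 and Vax1, the lowest of these 6, at 1.00, and the 4 Otx2 starts reach up to 0.89.

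Otx2, a homeodomain factor needed for the forebrain and midbrain, had the highest level. It (ENSMUSG00000021848, chromosome 14, 48657677 to 48673819 on mm10) had 98.8, 87.9, 64.0, 89.8 and 84.9 FPKM in replicates 1 to 5. Replicate 3 was lowest and the other 4 lay between 84.9 and 98.8. Its log2(FPKM + 1) was 5.41 higher than that of 1 FPKM (SE 0.08, limma adjusted p = 3.2e-10), and it stood above 92.3% of all genes in the table. Exons of Otx2 overlap those of the opposite-strand Otx2os1 and of the same-strand Gm49154 in GENCODE M21. As no source used here says the libraries kept strand, overlapping reads of Otx2 and Otx2os1 cannot be told apart. For Gm49154 strand would not separate the overlapping reads.

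Otx1, its paralogue, acts with Otx2 in the forebrain and midbrain. Otx1 (ENSMUSG00000005917, chromosome 11, 21994764 to 22002897) had 8.45, 8.48, 7.26, 8.19 and 7.67 FPKM, 2.17 above 1 FPKM on the log2 scale (SE 0.06, limma adjusted p = 8.4e-09). Its coefficient of variation of 6.59% was the lowest of the 9 genes, and 8.2% of the 3390 genes within 2-fold of its mean had a smaller log2 SD than its 0.09. In all 5 libraries Otx2 was higher, by 8.81 to 11.7 times in FPKM and by 3.24 ± 0.16 in log2(FPKM + 1). Pairs were tested by flipping the signs of the 5 within-library differences (exact permutation, two-sided). A pair ordered the same way in every library reached the smallest p this design allows, 2 of 32 sign patterns, which after Benjamini-Hochberg adjustment over 41 pairs was 0.0674, so no pair could pass 0.05. Otx2 and Otx1 were such a pair.

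The posterior counterpart of Otx2 at the midbrain and hindbrain boundary is Gbx2, which is on the other side of a mutual repression. Gbx2 was at 0.109 ± 0.0600 FPKM, and Otx2 was higher in every library, by 6.27 ± 0.25 in log2(FPKM + 1) (exact permutation, adjusted p = 0.0674). Of the 12 genes of the posterior limit list, Fgf17 was the only one called above 1 FPKM, at 4.00 ± 0.847, and the other 11 were below. Irx2 (0.566 ± 0.186) and En1 (0.519 ± 0.181) were next in level, En2 had 0.00914, 0.0160, 0.0101, 0.0147 and 0 FPKM, and Hoxa2 was listed at 0.0197 FPKM in replicate 1, 0.0195 in replicate 5 and 0 in the other libraries. Fgf17 is also known from the anterior forebrain midline.

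Hesx1, a homeodomain repressor of the anterior neural plate and the pituitary primordium, had the largest SD of log2(FPKM + 1) of the 9 genes. That scale flattens low genes. In FPKM its coefficient of variation of 43.1% was not the largest, with 43.3% for Rax and 51.5% for Vax2. Hesx1 (ENSMUSG00000040726, chromosome 14, 26994416 to 27002329) had 10.6, 3.63, 6.83, 5.72 and 4.53 FPKM in replicates 1 to 5, a 2.91-fold range. Replicate 1 was highest and replicate 2 lowest. The level was 1.79 above 1 FPKM on the log2 scale (SE 0.18, limma adjusted p = 3e-05), and 96.7% of the 3376 genes within 2-fold of its mean had a smaller log2 SD than its 0.51. Hesx1 and Otx1, neighbours in level, were not separated: Otx1 minus Hesx1 was 0.38 ± 0.51 on the log2 scale, and Otx1 was higher in 4 of the 5 (exact permutation p = 0.188, adjusted 0.192).

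Pituitary and hypothalamic genes were low beside Hesx1. Of the 11 in that list none was called above 1 FPKM, 7 were below, 3 were called neither way and Tbx19 was listed at 0 in all libraries. At an unadjusted p under 0.05 limma also gave 0 above and 7 below. The pituitary factor Pou1f1 had 2.24, 0.792, 0.844, 0.466 and 0.688 FPKM, and the ventral forebrain factor Nkx2-1 had 1.56, 0.748, 0.285, 0.432 and 0.508. Both were highest in replicate 1, like Hesx1. Without replicate 2, 1 gene of the list was called above. Of the early pituitary factors, Lhx4 stood at 0.251 ± 0.0797 FPKM. Lhx3 had 0.123, 0.0214, 0, 0.0593 and 0.0654 FPKM. Whether pituitary primordium cells take part in the level of Hesx1 was not tested.

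The corepressors through which Hesx1 and Six3 are known to act were present. Of the 10 genes of the Groucho and corepressor list 8 were above 1 FPKM and 2 below. The histone deacetylase Hdac1 stood at 304 ± 24.8 FPKM, the Wnt effector Tcf7l2 at 102 ± 13.0 and the nuclear corepressor Ncor1 at 62.3 ± 9.75. The Groucho proteins Tle4 (9.26 ± 0.421), Tle1 (6.20 ± 0.876) and Tle3 (5.18 ± 0.477) were also above, while Tle2 (0.256 ± 0.201) was below.

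Lhx2, a LIM-homeodomain factor of the eye field and the cortex, was the second highest of the 9 genes. Lhx2 (ENSMUSG00000000247, chromosome 2, 38339281 to 38369733) had 22.9, 20.5, 13.6, 13.9 and 13.0 FPKM in replicates 1 to 5, so replicates 1 and 2 stood above the other 3 with no overlap. The mean of 16.8 ± 4.59 was 3.11 above 1 FPKM on the log2 scale (SE 0.13, limma adjusted p = 9.3e-08). In its group of 3147 genes within 2-fold in level, 94.1% had a smaller log2 SD than its 0.36. Lhx2 exceeded Otx1, next in level, by 0.94 ± 0.30 in log2(FPKM + 1) and was lower than Pax6, the difference being -1.91 ± 0.22, each in every library (exact permutation, adjusted p = 0.0674).

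Lhx9, the closest paralogue of Lhx2, is known from the diencephalon, the early dorsal forebrain and the gonad. Lhx9 (ENSMUSG00000019230, chromosome 1, 138825186 to 138848577) had 0.972, 0.551, 0.89, 0.328 and 0.706 FPKM, with no library above 1. Lhx2 was higher in every library, by 15.3 to 42.2 times in FPKM and 3.37 ± 0.37 in log2(FPKM + 1) (exact permutation, adjusted p = 0.0674). Its call below 1 FPKM was close to the threshold (log2 difference -0.26, SE 0.09, limma adjusted p = 0.025) and was lost without replicate 2 (adjusted p = 0.074), replicate 4 (0.079) or replicate 5 (0.051). Over all alternatives the adjusted p ran from 3.8e-05 to 0.35. With each library rescaled to an FPKM sum of 1000000, which raised every library against 1 FPKM, the difference was -0.12. Against 0.5 FPKM the difference was 0.16, and neither was called. Rescaling by median ratio left it at -0.26 (limma adjusted p = 0.028).

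Other LIM-homeodomain genes were mostly below 1 FPKM. Of 10, Isl1 (4.24 ± 0.594) and Lmx1a (3.46 ± 0.247) were above and 8 below, from Lhx5 at 0.548 ± 0.151 down to Lhx1 (0.0120, 0.0105, 0, 0.147 and 0.0432 FPKM in replicates 1 to 5) and Isl2 (0.10, 0, 0, 0.0213 and 0.0344). LIM-homeodomain proteins work in complexes with Ldb and Ssbp proteins, and Lmo proteins compete for Ldb. Of the 10 genes of this partner list 8 were above and 2 below. Ssbp2 (107 ± 18.1), Ssbp3 (92.8 ± 6.18) and the ubiquitin ligase Rlim (29.8 ± 2.63), which degrades Ldb proteins, were the highest, and the scaffold Ldb1 stood at 6.61 ± 0.582. The competitors Lmo3 (25.1 ± 2.33) and Lmo4 (17.0 ± 2.02) were above as well, and Ssbp4 (0.0575 ± 0.0229) and Lmo2 (0.624 ± 0.191) were below 1 FPKM.

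Rax, the homeodomain factor that marks the eye field and is needed for the optic vesicle, was low in every library. Rax (ENSMUSG00000024518, chromosome 18, 65928277 to 65939787) had 0.238, 0.104, 0.132, 0.216 and 0.324 FPKM, below 1 FPKM by limma (log2 difference -0.74, SE 0.04, adjusted p = 7.9e-07; -1.91 with a pseudocount of 0.1). Low FPKM move in steps, the smallest being what 1 read adds, and once scaled for depth the Rax values were 8, 4, 4, 9 and 11 steps. If 1 step is 1 read, replicates 2 and 3 rest on 4 reads each. Its exons overlap the opposite-strand Raxos1 in the annotation, with the same limit on strand as for Otx2.

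Its partners in the eye field were at other levels. Of the 9 genes in the eye field partner list 8 were above 1 FPKM and only Tbx2 (0.0839 ± 0.0498) was below. Pax6 and Sox2 of this list are also counted in the neural progenitor list described below, so the count is not particular to the eye field. Pax6, the homeodomain and paired-domain factor of eye and cortex, stood at 64.6 ± 7.64 FPKM, the secreted Wnt regulator Sfrp1 at 51.4 ± 6.92 and the nuclear receptor Nr2e1 at 18.1 ± 3.73. Six3, a homeodomain factor that holds Wnt signalling down in the anterior plate, had 11.1, 10.7, 6.90, 6.90 and 6.96 FPKM. Its relative Six6, which promotes growth of the eye field, had 4.29, 3.92, 2.71, 2.36 and 2.22. Both were highest in replicates 1 and 2, as Lhx2 was. Rax minus Six3 was -2.96 ± 0.37 and Rax minus Six6 -1.74 ± 0.38 on the log2 scale, with Rax lower in every library for both (exact permutation, adjusted p = 0.0674). The Wnt receptor Fzd5 (1.70 ± 0.354) and the T-box repressor Tbx3 (2.37 ± 0.779) were also above 1 FPKM.

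Vax1 and Vax2, homeodomain factors of the ventral optic vesicle, optic stalk and ventral forebrain, were the lowest of the 9. Vax1 (ENSMUSG00000006270, chromosome 19, 59166187 to 59170056) had 0.0991, 0.130, 0.110, 0.0998 and 0.0490 FPKM, and Vax2 (ENSMUSG00000034777, chromosome 6, 83711264 to 83738313) 0.127, 0.0740, 0.0939, 0.0341 and 0.0419. The Vax1 values were 4, 6, 4, 5 and 2 steps and those of Vax2 3, 2, 2, 1 and 1 steps. Both lay below 1 FPKM, with a log2 difference of -0.87 for Vax1 (SE 0.02, limma adjusted p = 6e-09) and -0.90 for Vax2 (SE 0.02, limma adjusted p = 7.5e-09). Vax1 and Vax2 did not keep 1 order: Vax1 minus Vax2 was 0.03 ± 0.05 on the log2 scale, and Vax1 was higher in 4 of the 5 (exact permutation p = 0.312, adjusted 0.312). Rax minus Vax1 was 0.13 ± 0.14, and Rax was higher in 4 of the 5 (exact permutation p = 0.188, adjusted 0.192). The sizes of these differences depend on the pseudocount: with 0.1 in place of 1 they were -2.49 for Vax1 and -2.69 for Vax2 against 1 FPKM, 0.19 for Vax1 minus Vax2 and 0.58 for Rax minus Vax1, with the same calls. A step is 0.0200 to 0.0275 FPKM for Vax1 and 0.0341 to 0.0470 for Vax2.

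Genes of the optic stalk and neural retina lay on both sides of 1 FPKM. Of 12, 5 were above 1 FPKM, 6 below and Atoh7 was listed at 0 in all libraries. Among all tested genes 52.3% were called above and 41.4% below, so these counts were near the background. Pax2, a paired-domain factor of the optic stalk, was below at 0.135 ± 0.0702. Vsx1 (0.0238 ± 0.0108), Crx (0.167 ± 0.0860) and Tbx5 (0.121 ± 0.0760) were below as well. The 5 above included Aldh1a3 (97.3 ± 27.6), which makes retinoic acid, Fgf15 (71.4 ± 17.4) and Efnb2 (6.33 ± 1.32), genes used in other tissues too. Aldh1a3 was lowest in replicate 1 at 55.6 FPKM and highest in replicate 3 at 132.

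Mitf, a basic helix-loop-helix factor of the retinal pigment epithelium and of melanocytes, was the lowest of the 5 genes above 1 FPKM. Mitf (ENSMUSG00000035158, chromosome 6, 97807052 to 98021349) had 1.76, 1.29, 1.71, 1.33 and 1.46 FPKM, 0.32 above 1 FPKM on the log2 scale (SE 0.08, limma adjusted p = 0.0046). Against 2 FPKM its difference was -0.26 (limma adjusted p = 0.013; range over all alternatives 3.9e-05 to 0.016), so the side depends on the level chosen. The gene has 3 RefSeq start regions in the promoter table and 8 GENCODE transcripts, and FPKM per gene does not tell its isoforms apart. Mitf was lower than its relative Tfe3 (3.52 ± 0.846) in every library, Mitf minus Tfe3 being -0.83 ± 0.30 in log2(FPKM + 1) (exact permutation, adjusted p = 0.0674), and Tfeb and Tfec were below 1 FPKM. Tfeb was listed at 0, 0, 0.109, 0.0331 and 0.185 FPKM, and Tfec at 0.0831, 0, 0.154, 0.313 and 0.384.

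The melanin pathway genes that Mitf is known to activate were mostly low. In the pigment cell list 2 of 12 were above 1 FPKM, 9 below and Bhlhe40 was called neither way. Tyr, the first enzyme of melanin synthesis, had 2.31, 2.31, 1.05, 1.34 and 1.29 FPKM, and the channel Trpm1 1.64, 2.58, 9.52, 1.90 and 2.84. Without replicate 1 or replicate 2 only 1 of the list was called above. Dct (0.315 ± 0.117), Pmel (0.436 ± 0.211) and Tyrp1 were below, Tyrp1 with 0.103, 0.221, 0, 0.0414 and 0.0508 FPKM. Rpe65 was listed at 0.0312 FPKM in replicate 1 and 0 elsewhere, Mlana at 0.207 in replicate 1 and 0 elsewhere, and Gpr143 at 0.0254 in replicate 4 and 0 elsewhere. Kit, a receptor of melanoblasts, germ cells and mast cells, had 36.1 ± 7.53 FPKM. The neural crest factors Sox10 (0.222 ± 0.121) and Foxd3, listed at 0.0199 FPKM in replicate 5 and 0 elsewhere, were below 1 FPKM. Of the 10 melanoblast and neural crest genes 7 were above and 2 below (1 without replicate 5), with Tfap2b (13.3 ± 3.82) and Sox9 (19.2 ± 4.12) among those above.

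**Figure D3:**
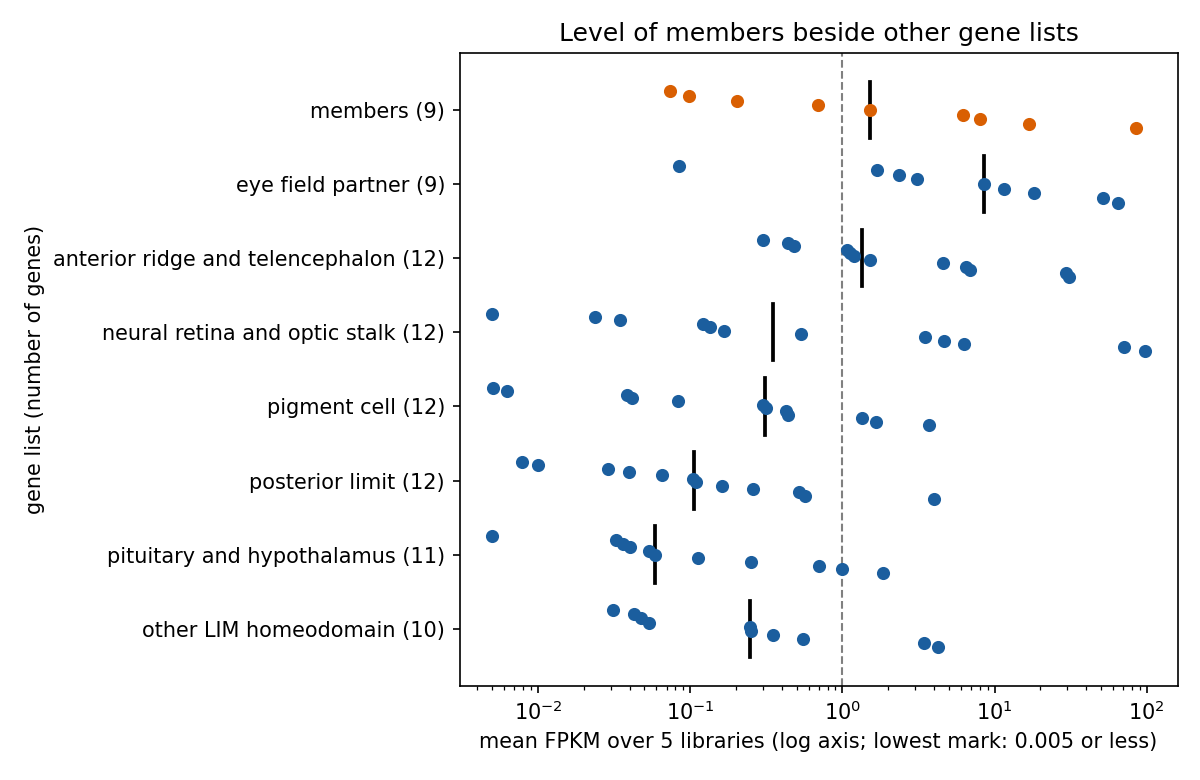
Mean FPKM over 5 libraries on a log axis for the 9 genes (top row) and the genes of 7 other lists, with 1 point per gene, a black line at the list's median and a dashed line at 1 FPKM. The 9 genes spread on both sides of 1 FPKM, whereas 11 of 12 posterior limit genes lie below it and 8 of 9 eye field partners above.

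In the anterior ridge and telencephalon list 6 of 12 were above 1 FPKM, 3 below and 3 neither way, with a list median of 1.36 FPKM. The count above was near the 52.3% of all tested genes, so it is not a result about this list. Gli3 (30.9 ± 1.82), Sp8 (29.6 ± 4.63) and Emx2 (6.95 ± 1.11) were highest. The lowest was Emx1 (0.30 ± 0.16), and Fgf8, the signal of the anterior ridge, was below at 0.484 ± 0.195.

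Across libraries 4 of the 5 genes above 1 FPKM were highest in replicate 1, and their other libraries differed in order. The share of all genes highest in replicate 1 is not given here, so this count is not a result about these genes. On the log2(FPKM + 1) scale, deviations from the gene's own mean in replicates 1 to 5 were 0.46, 0.31, -0.25, -0.22 and -0.31 for Lhx2. For Otx2 they were 0.23, 0.06, -0.39, 0.09 and 0.01, and for Hesx1 0.75, -0.57, 0.18, -0.04 and -0.32. Replicate 1 was highest for Otx2, Lhx2, Hesx1 and Mitf. Otx1 was highest in replicate 2 and stayed within 0.12 of its mean in all 5, and Mitf stayed within 0.14. By median deviation, the eye field partner and neural progenitor lists were also highest in replicate 1. The mesenchyme and surface ectoderm lists were lowest there.

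Markers of other cell types moved between the same libraries. Summed over all 14 mesenchyme genes, levels were 55.4, 101, 210, 172 and 180 FPKM in replicates 1 to 5. Replicates 1 and 2, the highest for Lhx2, Six3 and Six6, were the lowest here. The 10 surface ectoderm genes summed to 121, 185, 170, 127 and 126 FPKM, and the 12 neural progenitor genes to 328, 326, 277, 313 and 307. The mesenchyme list had 11 genes above 1 FPKM and 2 below, led by Lum (42.6 ± 21.9) and Alx1 (23.6 ± 11.1). The surface ectoderm list had 8 above and 1 below (2 without replicate 1), led by Krt18 (62.3 ± 11.8), Cdh1 (25.2 ± 5.67) and Krt8 (24.1 ± 5.16). Their part in the differences between libraries was not tested, and fewer cells of a type and less RNA per cell cannot be told apart in bulk RNA.

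The neural progenitor list, chosen for the labelled cell type, had 11 of 12 genes above 1 FPKM and none below. Prom1 stood at 88.1 ± 11, Vim at 54.2 ± 8.38 and Sox2 at 11.6 ± 1.72. Lower were Nes (3.55 ± 0.669), Sox1 (2.17 ± 0.483) and Sox3 (2.10 ± 0.569), and Hes5 (0.990 ± 0.329) was called neither way. The list median was 10.9 FPKM, beside 9.92 for mesenchyme and 8.23 for surface ectoderm. As those lists were also mostly above, this count cannot tell the labelled cell type from others. In the other lists of cell types, 6 of 10 neuronal genes were above and 4 below, with Tubb3 (61.6 ± 13.1) and Gap43 (18.2 ± 5.23) the highest. These counts were near the 52.3% above and 41.4% below among all tested genes. The lens and placode list had 6 of 11 above, 3 below, 1 neither way and Pitx3 listed at 0 in all libraries. Its count above was near the background as well. Dlx5 (25.1 ± 9.18) and Eya2 (20.2 ± 4.90) led this list, while the lens crystallin Cryaa was listed at 0.0444 FPKM in replicate 1 and 0 elsewhere. Endothelial genes had 1 of 8 above (2 without replicate 1 or replicate 2) and 4 below, blood genes 0 of 8 above (1 without replicate 1) and 4 below, and microglial genes 0 of 8 above and 6 below. At an unadjusted p under 0.05 limma gave the same counts for the blood, microglial and neural progenitor lists.

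**Figure D4:**
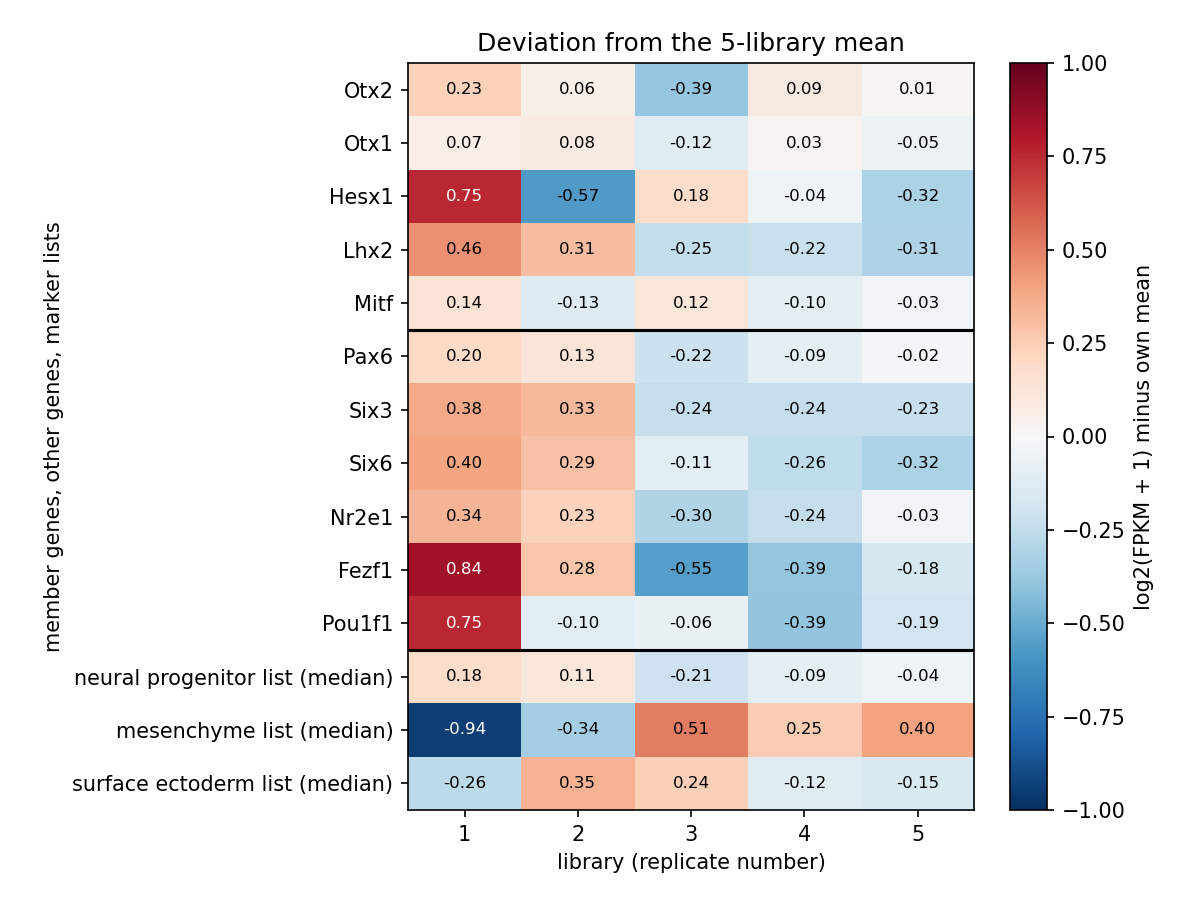
Deviation of log2(FPKM + 1) from the 5-library mean for 5 of the 9 genes (upper block), 6 other named genes (middle block) and the median deviation of 3 marker lists over genes that averaged 1 FPKM or more (lower block), in replicates 1 to 5. Lhx2, Six3 and Six6 are above their means in replicates 1 and 2 and below them in replicates 3 to 5, while the mesenchyme list runs from -0.94 in replicate 1 to 0.51 in replicate 3.

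The genes whose library pattern was most like each of the 5 present genes were searched over 10983 genes that averaged 1 FPKM or more, by the root mean square difference of the log2 deviations over 5 libraries. For Otx2 the nearest was Emx2 (0.032), a homeobox factor of the cortex with 8.21, 7.25, 5.16, 7.07 and 7.07 FPKM, followed by Pcsk1 (0.037). For Lhx2 they were Brap (0.04) and Samd15 (0.046), for Otx1 Zfp664 (0.014) and Anapc13 (0.015), for Mitf Rbbp6 (0.022) and Dzip1 (0.022), and for Hesx1 Dohh (0.103) and Nr2f6 (0.115). With 5 libraries and this many genes, close patterns may be found for many genes, and these are given as a description.

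Over the 36 pairs of the 9 genes, 33 had the same order in every library, and the 3 that did not were Otx1 and Hesx1, Rax and Vax1, and Vax1 and Vax2. Neighbours in level with the same order throughout were Otx2 and Lhx2 (2.30 ± 0.29 on the log2 scale), Lhx2 and Otx1 (0.94 ± 0.30), Hesx1 and Mitf (1.46 ± 0.41), Mitf and Lhx9 (0.58 ± 0.13), and Lhx9 and Rax (0.48 ± 0.25). Each of these had the adjusted p of 0.0674 from the exact permutation.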

How the data were processed

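Total RNA of 5 NEC libraries was turned into full-length cDNA with a poly-dT primer and template switching, amplified, sheared and sequenced with single-end reads, per the labels' protocols. No molecular identifiers are described, so counting error is not the only error of a value. The authors deposited 1 table of FPKM. The build mm10 and the tools TopHat2 2.0.11, Cuffdiff 2.2.1, CASAVA 1.8 and cutadapt are listed, without roles, per the submitters' processing notes. How the mapped total was defined, which annotation release was used and any filters: not given in the sources used here. Columns were matched to samples by the replicate number in their names. FPKM summed to 747034 to 847625 per library, and 16275 to 18456 genes lay above 0. Library pairs correlated across genes at r of 0.99 to 0.997 (log2 values; genes are not independent replicates), and no column repeated another.

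Values were put on the scale log2(FPKM + 1), which understates differences of low genes. An intercept was fitted with limma 3.58.1 in R 4.3.3, with a variance trend, and tested two-sided against 1 FPKM over the 19706 genes above 0 in at least 1 library, with Benjamini-Hochberg adjustment over all of them. On simulated data with 19706 genes, the test called 100% at a true difference of -0.8, 88% at -0.4, 90% at 0.4 and 96% at 0.8 (50 genes each), and 3.7% of 2000 genes set at the level. Pairs were compared within libraries by an exact sign-flip permutation test over 32 sign patterns.

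Relative depth was read from the steps between low values, as 1.15, 0.902, 1.24 and 1.01 for replicates 2 to 5 against replicate 1. Of 1224 genes above 0 in all libraries and under 0.3 FPKM, 53.6% were whole multiples of 1 step within 0.03 of a step, up to 20 steps. The others did not meet these limits, which does not show that their values are not whole reads. A 0 is reported as listed. Coordinates are from GENCODE M21.

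The genes, lists, pairs and alternatives were chosen with earlier results of these data known. Named genes are the 9, both genes of each pair, the 3 highest and 2 lowest of each of 19 lists, and the 2 nearest in pattern, although some list genes are counted but not reported here by name; other list members, the genes at 0 that nearly every cell uses, the motifs and the printed windows were chosen after values were seen.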

Additional observations from a re-analysis of the deposited data

Results flagged for a closer look

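Of 147 values and pair differences checked, 15 had 1 library whose gap to the nearest other, divided by the whole range, passed 0.710, Dixon's value for 5 samples. Chance gives about 1 in 20 for independent, normally distributed values. A gene above 0 in only 1 library passes by construction, and pairs share genes, so the 15 cannot be set against that rate. None of the 9 genes' own levels passed 0.710. Replicate 3 stood apart in Otx2 minus Mitf (4.58 on the log2 scale, against 5.13 to 5.28 in the other libraries), Otx2 minus Vax2 (5.89), Otx1 minus Vax1 (2.90), Trpm1 (9.52 FPKM, against 1.64 to 2.84) and Gli3 (34.1 FPKM). In replicate 4 Mitf minus Lhx9 was high at 0.81, and in replicate 2 Mitf minus Tfe3 was low at -1.36. Pou1f1 was high in replicate 1 (2.24 FPKM, against 0.466 to 0.844), as were Csf1r (0.214) and Ptprc (0.274). At levels of a few reads, Cx3cr1 was high in replicate 2 (0.0358 FPKM), and Cryaa (0.0444), Rpe65 (0.0312), Foxd3 (0.0199) and Gpr143 (0.0254) were each above 0 in 1 library.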

How the results depend on the processing

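The 5 genes above 1 FPKM stayed 5 under every alternative except a level of 2 FPKM, which left 4, and when each replicate was left out the count above stayed at 5 and the count below was 3 to 4. With genes averaging under 0.1 FPKM dropped, 2 of the 9 genes were called below, since Vax1 and Vax2 were then not tested, and among all genes called below 1 FPKM 3495 were left. Leaving out 1 replicate gave 10195 to 10281 genes above and 7328 to 7997 below over the whole table. Of 133 gene results under the alternatives, 127 kept direction and call. Lhx9 lost its call in 4 and turned to 0.16 against 0.5 FPKM, and Mitf turned to -0.26 against 2 FPKM; the level moved there by construction. Otx2 minus Otx1 was 3.20 to 3.31, Lhx2 minus Lhx9 3.27 to 3.48 and Vax1 minus Vax2 0.02 to 0.05 when 1 replicate was left out, with 0.125 the smallest p allowed. Rescaling each library to an FPKM sum of 1000000 raised it by 0.24 to 0.42 on the log2 scale, so levels against 1 FPKM rose there by construction. A pseudocount of 0.1 in place of 1 changed no direction or call of the 9 genes or 41 pairs, but made the difference over 1.5 times as large for 5 genes (Lhx9 -0.55, Rax -1.91, Vax1 -2.49, Vax2 -2.69 and Mitf 0.54) and 21 pairs, among them Mitf minus Lhx9 (1.09), Lhx9 minus Rax (1.36), Rax minus Six3 (-4.84) and Rax minus Six6 (-3.40). No paired analysis was possible because all libraries belong to 1 group, so no replicate number links 2 groups; genes were paired within libraries. Depth limits Rax, Vax1 and Vax2, whose values rest on a few steps.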
